A study of Homo sapiens with 4 samples.

Results

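The 7 genes described here encode the core of CDK2 control: the cyclins CCNE1, CCNE2 and CCNA2, the kinase CDK2, its activating phosphatase CDC25A, and the F-box proteins SKP2 and FBXW7. They were chosen by name for their role, with earlier results of these data known, and were found by symbol among the 20263 human Ensembl genes of the deposited count table. All 7 passed the count filter, as did 13816 genes in all. RNA was sequenced from 4 libraries of MDA-MB-231, a human cell line from a triple-negative breast cancer. Cells grown in serum received the compound YW-LF for 24 h (n = 2), and cells given the solvent dimethyl sulfoxide (DMSO) were the controls (n = 2). The series title describes YW-LF as derived from ribociclib, a drug that inhibits CDK4 and CDK6, and no dose is stated in the labels. Both groups are the same line, and the labels name no genetic change in either. Nothing in the labels says that the 2 libraries of a group are separate cultures. The p-values therefore cover the spread between these libraries alone, and that spread may be technical.

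CDK2 is active only when bound to a cyclin. Cyclin E binds it late in G1 and drives the start of DNA replication, and cyclin A takes over during S phase. CDC25A removes inhibitory phosphates from the kinase. SKP2 and FBXW7 are the substrate-recognition parts of SCF ubiquitin ligases: SKP2 marks the CDK inhibitor p27 for destruction, and FBXW7 marks phosphorylated cyclin E. The genes of cyclin E, cyclin A and CDC25A are textbook targets of E2F transcription factors, which the retinoblastoma protein holds back until CDK4, CDK6 and CDK2 phosphorylate it.

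Library totals ran from 34774542 to 40218240 counts, and CPM is a gene's count relative to the total of its library, here after TMM scaling, which corrects for library composition. On that scale a single count was worth between 0.0199 and 0.0324 CPM, depending on the library. The lowest count of any of the 7 genes in a library was 88 and the highest 6083. The YW-LF libraries resembled each other less (Pearson r = 0.907 in log2 CPM across 13816 genes, which are not independent replicates) than the DMSO libraries did (r = 0.976), while both controls correlated more strongly with YW-LF replicate 1 (r = 0.922 and 0.911) than its own partner did. The mitochondrial share of counts was 8.68% and 21.7% in DMSO and 3.14% and 6.58% in YW-LF. Removing the mitochondrially encoded genes before scaling left both groups in the same order for all 7 genes. Of the markers of the line, VIM stood between 2120 and 4150 CPM and MSN between 1610 and 3100 CPM. EGFR was at 870 and 1060 CPM in DMSO and at 392 and 129 CPM in YW-LF. Of 6 epithelial and receptor genes, CDH1 had at most 13 counts in a library, ESR1 at most 33 and PGR at most 85. The other 3 were detected, EPCAM at 5.53 to 9.35 CPM, ERBB2 at 30.2 to 71.9 CPM and KRT18 at 70.3 to 304 CPM. The immune gene PTPRC had at most 29 counts. Of the fibroblast genes, PDGFRB had 41 to 100 counts in a library. COL1A1 had 261 and 265 counts in DMSO and 329 and 15 in YW-LF.

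In cells given YW-LF, 6 of the 7 genes were lower in both libraries than in either DMSO library, and FBXW7 was higher in both. In bulk RNA, fewer cells that express a gene, as when fewer cells are in S phase, and less RNA per cell cannot be told apart. CCNE2 had the largest difference, 16.9-fold lower, followed by SKP2 (3.86-fold), CCNA2 (3.83-fold), CDC25A (3.07-fold), CCNE1 (2.50-fold) and CDK2 (1.73-fold lower), while FBXW7 was 1.86-fold higher. Non-overlapping groups were common in these data: 27.8% of all genes tested lay below DMSO in both YW-LF libraries and 28.0% lay above. The median log2 fold change of the 7 genes was -1.62, against 0.06 over all genes tested. None of the 7 passed adjustment over all genes in edgeR's quasi-likelihood test, which called 0.00% of genes in either direction. At an unadjusted p under 0.05 the same test counted 6 of the 7 (all but CDK2), 5 lower and 1 higher, against 9.01% of all genes lower and 11.5% higher. DESeq2, which called 4.47% of genes lower and 5.88% higher, called 4 of the 7 lower: CCNE2, CCNA2, CDC25A and SKP2. EdgeR without a count filter called 0.718% of genes lower and 0.927% higher, and of the 7 it called CCNE2. EdgeR with a replicate block called 1.05% lower and 1.35% higher, and of the 7 it called CCNE2 and CCNA2.

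**Figure D1:**
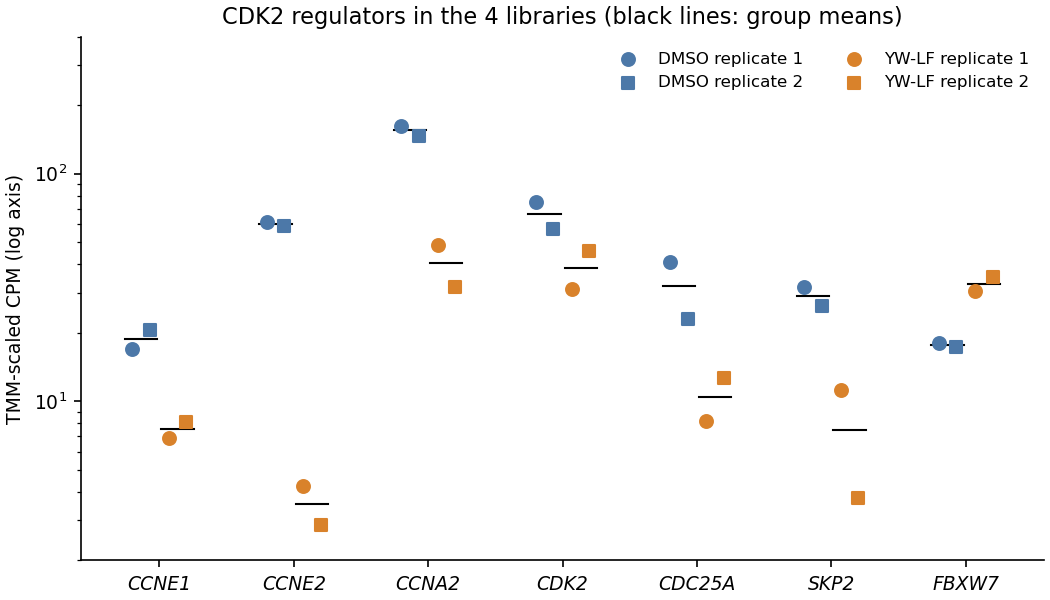
TMM-scaled CPM (log axis) of the 7 genes in each library, DMSO in blue and YW-LF in orange, with circles for replicate 1, squares for replicate 2 and black lines at group means. The genes from CCNE1 to SKP2 sit lower in both YW-LF libraries, CCNE2 by the widest gap (61.1 and 58.9 against 4.24 and 2.85 CPM), and FBXW7 sits higher.

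CCNA2 and CDC25A are shown with promoter sequence, because these are the genes in whose single RefSeq window a searched motif lay before the start site. RefSeq promoter windows of GRCh38.p14, from 250 bases before to 50 after a gene's start, were searched on both strands for the E2F cores TTCCCGC and TTGGCGC, the cell cycle homology region TTTGAA and the NF-Y box CCAAT. The stretches below are 160 bases long, read 5′ to 3′ on the gene's strand, end outside the transcribed span of the GENCODE and RefSeq annotations, and have matched letters in capitals. The CCNA2 stretch is chr4:121823934-121824093 (minus strand) and the CDC25A stretch is chr3:48188418-48188577 (minus strand).
CCNA2: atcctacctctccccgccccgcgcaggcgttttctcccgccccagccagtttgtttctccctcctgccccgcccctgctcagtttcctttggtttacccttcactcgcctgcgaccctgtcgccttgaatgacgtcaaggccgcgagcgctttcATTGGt
CDC25A: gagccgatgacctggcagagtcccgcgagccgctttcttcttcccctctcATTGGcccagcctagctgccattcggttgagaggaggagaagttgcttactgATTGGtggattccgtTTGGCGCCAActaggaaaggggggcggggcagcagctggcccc
CDC25A holds TTGGCGC on both strands, starting 43 and 40 bases before the RefSeq start, so that the matches overlap. It also holds 2 NF-Y boxes on the opposite strand, starting 110 and 58 bases before the start. CCNA2 holds 1 NF-Y box on the opposite strand, starting 56 bases before its start. Of all 35116 windows of this length, 3.04% held TTGGCGC, 6.55% TTCCCGC, 15.2% TTTGAA and 34.6% CCAAT. The windows of CCNE1 and SKP2 held none of the 4 motifs. Among 4 windows of FBXW7, 1 held TTTGAA and CCAAT. These matches are letters in a window, not measured sites. CCNE2 and CDK2 had no entry.

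CCNE1 and CCNE2 encode the paired E-type cyclins. CCNE1 (ENSG00000105173, chromosome 19, 29811898 to 29824308, GRCh38) was at 17.0 and 20.6 CPM in DMSO replicates 1 and 2 and at 6.90 and 8.12 CPM in YW-LF replicates 1 and 2. The groups were well apart, by 2.09-fold between their nearest libraries, and each pair was close. The log2 fold change was -1.32 (SE 0.41, edgeR adjusted p = 0.165, DESeq2 adjusted p = 0.076). CCNE2 (ENSG00000175305, chromosome 8, 94879770 to 94896678) had DMSO libraries within 1.04-fold of each other and nearest libraries of the groups 13.9-fold apart. Its log2 fold change was -4.08 (SE 0.43, edgeR adjusted p = 0.117), the 25th lowest of 13816 genes. DESeq2 called it with an adjusted p of 8.1e-14, edgeR without a count filter with 0.013 and edgeR with the replicate number as a block with 0.0053. CCNE2 shares 1629 exon bases with INTS8, a gene on the opposite strand that had 2421 and 1401 counts in DMSO and 2359 and 734 in YW-LF. Whether counting used strand is not stated, so reads from the shared stretch cannot be told apart.

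The balance of the E-type cyclins differed with it. A ratio of counts within a library does not depend on how libraries are scaled. CCNE2 had 3.60 and 2.86 counts for each CCNE1 count in the DMSO libraries and 0.614 and 0.352 in the YW-LF libraries. Both treated libraries thus held fewer CCNE2 than CCNE1 counts, and both controls held more. The log2 ratio was 1.68 ± 0.23 in DMSO and -1.10 ± 0.57 in YW-LF (mean ± SD, n = 2 in each group here and below), a 6.90-fold difference. Per kb of merged exon length, CCNE2 made up 67.6% and 62.4% of the cyclin E signal in DMSO and 26.3% and 16.9% in YW-LF. In all 5 ratios were tested this way, each by an exact two-sided permutation test, which with 2 samples against 2 cannot go below p = 0.333. All 5 gave that value, also after Benjamini-Hochberg adjustment, so the test could not call any of them.

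CCNA2, cyclin A2, the partner of CDK2 in S phase (ENSG00000145386, chromosome 4, 121816444 to 121823933), stood at 162 and 147 CPM in DMSO and at 48.8 and 31.8 CPM in YW-LF. The groups lay 3.0-fold apart at their nearest libraries, and the treated pair differed by 1.53-fold. The log2 fold change was -1.94 (SE 0.39, edgeR adjusted p = 0.121, DESeq2 adjusted p = 0.0011), and with the replicate block the edgeR adjusted p was 0.046. It shares 254 exon bases with EXOSC9 on the opposite strand, which had 1157 to 1838 counts in a library.

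CDK2, the kinase itself (ENSG00000123374, chromosome 12, 55966769 to 55972784), differed least among the 6 lower genes. It was at 75.3 and 57.3 CPM in DMSO and at 31.1 and 45.7 CPM in YW-LF. The nearest libraries were 1.25-fold apart, less than the 1.47-fold between the YW-LF libraries and the 1.32-fold between the DMSO libraries. The log2 fold change was -0.79 (SE 0.38, edgeR adjusted p = 0.295, DESeq2 adjusted p = 0.33). CCNA2 had 2.16 and 2.56 counts per CDK2 count in DMSO and 1.57 and 0.697 in YW-LF. The treated libraries were unlike each other here: the difference in log2 ratio was -1.17 with all libraries, -0.58 when YW-LF replicate 2 was left out and -1.75 when YW-LF replicate 1 was.

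CDC25A, which activates CDK2 (ENSG00000164045, chromosome 3, 48157146 to 48188402), was at 41.1 and 23.0 CPM in DMSO and at 8.20 and 12.7 CPM in YW-LF. The DMSO libraries differed by 1.79-fold, the widest control spread among the 7 genes, and about as much as the 1.81-fold between the nearest libraries of the groups. The log2 fold change was -1.62 (SE 0.47, edgeR adjusted p = 0.153, DESeq2 adjusted p = 0.033). For each CDK2 count there were 0.546 and 0.401 CDC25A counts in DMSO and 0.263 and 0.278 in YW-LF. CDC25A mRNA was thus also lower relative to CDK2 mRNA. Its relatives CDC25B and CDC25C, which act mainly later in the cycle, were at -0.59 (SE 0.36) and -0.53 (SE 0.39), and neither gene's groups overlapped. Of the CDK-activating kinase subunits, CDK7 at 0.83 (SE 0.34) and CCNH at 0.48 (SE 0.39) lay above DMSO in both treated libraries. For CCNH the gap was narrow, with 38.2 and 38.3 CPM in DMSO and 39.7 and 67.1 CPM in YW-LF. The nearest libraries of the groups were 1.04-fold apart. Leaving out YW-LF replicate 2 brought CCNH to 0.04, so nearly all of the difference rests on that library. MNAT1 at -0.02 (SE 0.34) overlapped. None of these 5 passed in edgeR. Of the 5, 2 lay below DMSO in both treated libraries and 2 above, where over all genes tested 27.8% lay below and 28.0% above.

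SKP2 (ENSG00000145604, chromosome 5, 36151989 to 36184319) was at 31.9 and 26.1 CPM in DMSO and at 11.2 and 3.75 CPM in YW-LF. The treated libraries differed by 2.99-fold, the widest spread of any of the 7 genes, though both lay below the controls. The log2 fold change was -1.95 (SE 0.59, edgeR adjusted p = 0.159, DESeq2 adjusted p = 0.017). With YW-LF replicate 2 left out it was -1.38, and with YW-LF replicate 1 left out -2.95, so its size depends on 1 library. FBXW7 (ENSG00000109670, chromosome 4, 152320544 to 152536063) went the other way and was even within groups, at 18.0 and 17.3 CPM in DMSO and 30.6 and 35.1 CPM in YW-LF. Its log2 fold change was 0.89 (SE 0.36, edgeR adjusted p = 0.235, DESeq2 adjusted p = 0.22). FBXW7 has several start sites, and counts per gene do not separate their transcripts.

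Set against each other, SKP2 had 1.77 and 1.51 counts per FBXW7 count in DMSO and 0.368 and 0.108 in YW-LF. This was an 8.22-fold difference, with log2 ratios of 0.71 ± 0.17 and -2.33 ± 1.25. The difference in log2 ratio was -3.04, and it was -2.15 when YW-LF replicate 2 was left out and -3.93 when YW-LF replicate 1 was. CCNE1 had 0.942 and 1.19 counts for each count of FBXW7, the ligase subunit that recognizes its protein, in DMSO, and 0.226 and 0.232 in YW-LF. That ratio was 4.62-fold lower in YW-LF and the treated libraries were nearly equal in it. SKP2 and CCNE1 lay below DMSO and FBXW7 above in both treated libraries, so the direction of both ratios was fixed in advance. These are ratios of mRNA counts, and the proteins were not measured.

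**Figure D2:**
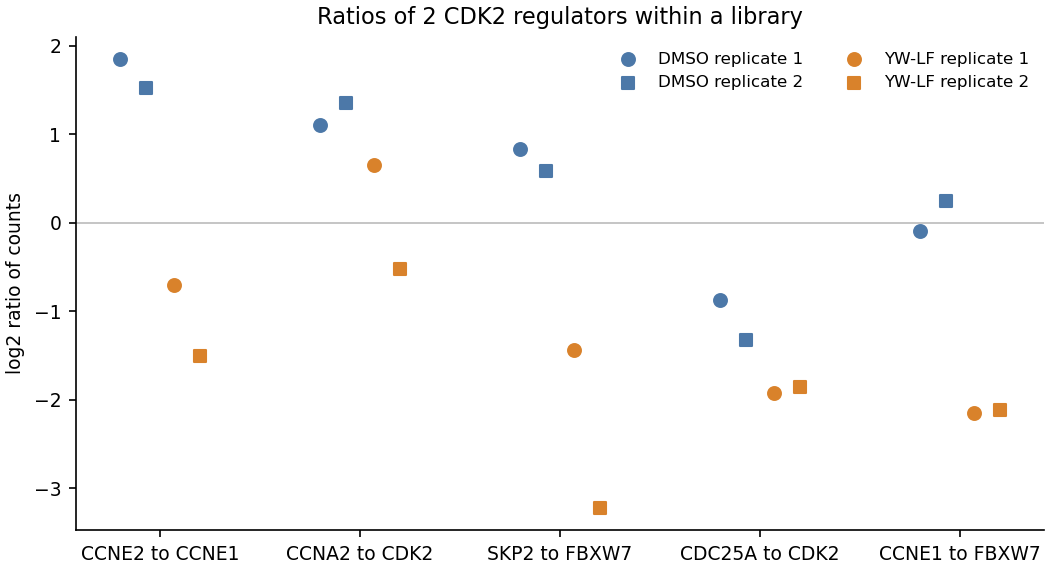
Log2 ratio of the counts of 2 genes within each library, for the 5 ratios tested, DMSO in blue and YW-LF in orange. Both YW-LF libraries lie below both DMSO libraries in every ratio shown. For the ratios to FBXW7 this was fixed in advance by the directions of the genes. The treated spread is widest for SKP2 to FBXW7 (-1.44 and -3.22) and narrowest for CCNE1 to FBXW7 (-2.15 and -2.11).

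Levels of different genes were compared as CPM per kb of merged exon length. In DMSO the order was CCNA2 (55.2 ± 4.01), CDK2 (17.0 ± 3.28), CCNE2 (13.6 ± 0.358), CDC25A (7.78 ± 3.12), SKP2 (7.56 ± 1.07), CCNE1 (7.36 ± 0.999) and FBXW7 (1.59 ± 0.0424). The libraries of CDC25A, SKP2 and CCNE1 overlapped in this order, while every other neighbouring pair was separated in both. In YW-LF the order began with CCNA2 (14.4 ± 4.28) and CDK2 (9.87 ± 2.64), whose libraries overlapped. FBXW7 (2.96 ± 0.284), CCNE1 (2.95 ± 0.338), CDC25A (2.54 ± 0.771) and SKP2 (1.95 ± 1.38) followed, each overlapping the next. CCNE2 (0.806 ± 0.224) was last and below SKP2 in both. On this scale CCNE2 went from the third place in controls to the lowest in treated cells, and FBXW7 from the lowest to the third, level with CCNE1. Merged exon length counts the exons of all annotated isoforms, which for FBXW7 come to 11.095 kb, so its level per kb may be understated.

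The treated libraries were also set one by one against the DMSO mean. On the log2 CPM scale, with replicate 1 given first, CCNE2 was at -3.81 and -4.37, CCNA2 at -1.66 and -2.27, and SKP2 at -1.36 and -2.93. These 3 genes were further from DMSO in replicate 2. CCNE1 at -1.43 and -1.20, CDK2 at -1.08 and -0.52 and CDC25A at -1.90 and -1.27 were further in replicate 1. FBXW7 was at 0.79 and 0.99. The 7 genes thus shared a direction between treated libraries but not an order of size.

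**Figure D3:**
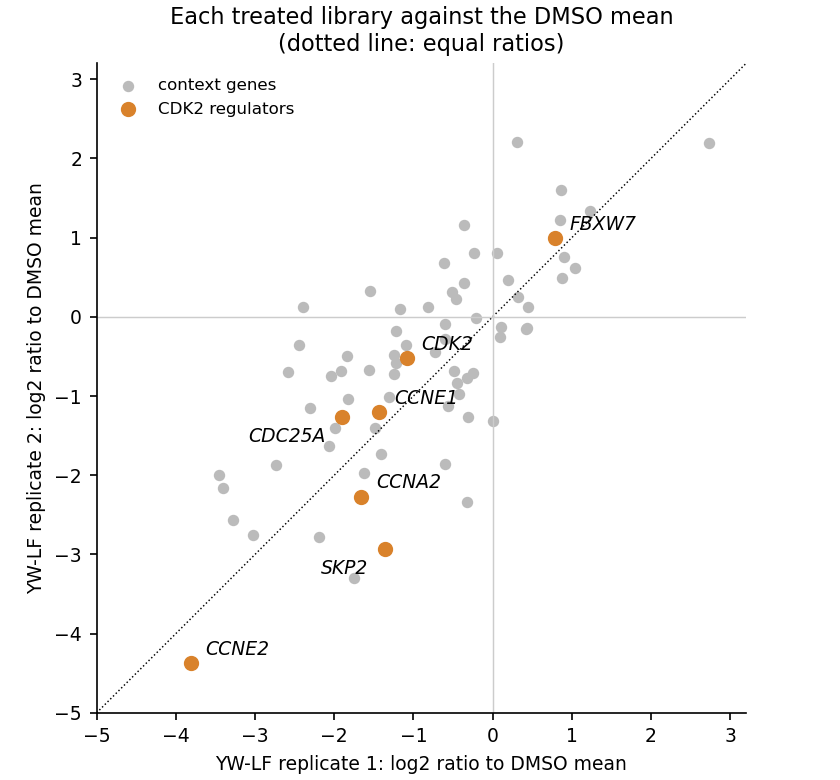
Log2 ratio to the DMSO mean in YW-LF replicate 1 (horizontal) and YW-LF replicate 2 (vertical) for the 7 genes (orange) and 66 further genes of CDK2 control and E2F output (grey). Each of the 7 genes has the same sign in both libraries, and among them SKP2 lies farthest below the dotted line of equal ratios.

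The rest of the pathway was described through 7 lists of 66 genes, all of which passed the count filter and none of which passed in edgeR over all genes. Over the lists, 36 genes were lower in each treated library than in either control and 12 were higher, with a median log2 fold change of -0.61, where over all genes 27.8% lay below and 28.0% above. These lists were drawn up with earlier results of these data known, and lists on S phase were already known to be low, so their direction is not independent evidence.

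The CDK2 inhibitors stood opposite to the cyclins. CDKN1A, which encodes p21, was at 33.8 and 18.7 CPM in DMSO and 167 and 115 CPM in YW-LF. Its log2 fold change was 2.42 (SE 0.46, edgeR adjusted p = 0.121, DESeq2 adjusted p = 9.4e-05). CDKN1B, which encodes the SKP2 substrate p27, was at 53.9 and 45.3 CPM in DMSO and 90.8 and 69.4 CPM in YW-LF. Its log2 fold change was 0.69 (SE 0.36), with an edgeR adjusted p of 0.32. CDKN1C, the third of this family, was at 1.04 (SE 0.53). All 3 lay above DMSO in both libraries, as did 28.0% of all genes tested. The inhibitory kinases showed no common direction: both had overlapping groups, PKMYT1 at -0.66 (SE 0.51) and WEE1 at 0.59 (SE 0.53), the latter with 30.5 and 87.6 CPM in the treated libraries. Without YW-LF replicate 2 these were -1.28 and -0.37, and PKMYT1 was at -0.23 without YW-LF replicate 1.

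Among 9 other partners of the kinase, 3 lay below DMSO and 3 above in both libraries, close to the shares over all genes (27.8% and 28.0%), and the median was -0.05. CKS2, a small CDK-binding protein, was at 1.55 (SE 0.65), with 166 and 623 CPM in the treated libraries against 137 and 132 CPM in DMSO. Without YW-LF replicate 2 its log2 fold change was 0.29. SPDYA, a CDK2 activator outside the cyclin family, was at 1.38 (SE 0.74) from at most 1.07 CPM. CCNA1, the second cyclin A gene, was at 23.3 and 25.3 CPM in DMSO and 17.7 and 13.7 CPM in YW-LF, a log2 fold change of -0.63 (SE 0.38).

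Of 12 genes of SCF and APC/C turnover, 3 were below and 2 above, smaller shares than over all genes, and the median was -0.08. For the SCF core that SKP2 and FBXW7 share, the groups overlapped: SKP1 was at 0.38 (SE 0.46; -0.25 without YW-LF replicate 2), CUL1 at -0.11 (SE 0.35) and RBX1 at -0.08 (SE 0.41). The genes of lowest p were FBXO5, which encodes the APC/C inhibitor EMI1 (-2.46, SE 0.40, edgeR adjusted p = 0.121), CCNF, cyclin F, an F-box protein (-1.45, SE 0.35, edgeR adjusted p = 0.127), and CDC20, an APC/C activator (-0.87, SE 0.39). FBXO5 was at 55.4 and 57.4 CPM in DMSO and 12.3 and 8.19 CPM in YW-LF.

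All 12 listed substrates of CDK2 lay below DMSO in both libraries, with a median of -1.13. Over all genes tested, 27.8% lay below and 28.0% above. For some the gap was narrow: the nearest libraries of the groups were 1.04-fold apart for NPAT and 1.05-fold for NPM1. MCM4, a helicase subunit, was at -2.24 (SE 0.44), RBL1, the pocket protein p107, at -1.56 (SE 0.35) and CDC6, a replication licensing factor, at -1.67 (SE 0.39). NPAT, the cyclin E substrate that drives histone gene expression, was at -0.47 (SE 0.37). Of 13 S phase genes that E2F factors control, 11 lay below and 0 above, against 27.8% and 28.0% of all genes, with a median of -1.20. MCM3, another helicase subunit, was at 278 and 273 CPM in DMSO and 34.0 and 40.8 CPM in YW-LF. Its log2 fold change was -2.88 (SE 0.39), with an edgeR adjusted p of 0.117. RRM2, a subunit of ribonucleotide reductase, was at 217 and 239 CPM in DMSO and 21.4 and 50.8 CPM in YW-LF (-2.66, SE 0.52; -3.43 without YW-LF replicate 2). MCM6 was at -1.83 (SE 0.37). The fall was not uniform over this list. MCM5 was at 156 and 181 CPM in DMSO and at 31.0 and 132 CPM in YW-LF, 1.18-fold apart at the nearest libraries. MCM7 and CDC45 overlapped: in YW-LF replicate 2 they were at 291 and 67.1 CPM, above both controls. CCNE2 exceeded each of these listed genes in the size of its log2 fold change; the difference between genes was not tested.

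The E2F family itself was mixed, with 5 of 10 genes below, 2 above and 3 overlapping. Over all genes tested, 27.8% lay below and 28.0% above. The activators E2F1 and E2F2 were at -1.63 (SE 0.47) and -2.92 (SE 0.54), while E2F3 overlapped between groups (-0.27, SE 0.43). E2F1 was at -2.33 without YW-LF replicate 2 and at -1.16 without YW-LF replicate 1. Among the atypical repressors, E2F8 was lower (-2.57, SE 0.56, from 40.2 and 46.7 CPM to 3.92 and 10.8 CPM). It was at -3.48 without YW-LF replicate 2 and at -2.01 without YW-LF replicate 1. E2F7 was higher, at 185 and 205 CPM in DMSO and 354 and 588 CPM in YW-LF. The log2 fold change of E2F7 was 1.27 (SE 0.45), with an edgeR adjusted p of 0.198.

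Genes with the most similar profile were found by the Euclidean distance between log2 CPM values centred on each gene's mean over the 4 libraries, among 10791 named genes with a mean of at least 5 CPM. With 4 libraries many genes share a profile, and the distances are descriptions. Nearest to CCNE1 was EXOSC10 (distance 0.045), to CCNA2 UBASH3B (0.12), to CDK2 TOPBP1 (0.065), to CDC25A ZFP90 (0.11), to SKP2 NIN (0.087) and to FBXW7 CLPTM1L (0.03). CCNE2 had no neighbour so close: B3GALT5 came nearest at 0.38, then ZNF488 at 0.42 and GLI2 at 0.50. B3GALT5 was at 15.5 and 16.3 CPM in DMSO and at 1.29 and 0.583 CPM in YW-LF. Among the 7 genes themselves, the closest pair was CCNA2 and SKP2, at 0.70.

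When each library was left out in turn, the direction of all 7 genes was the same in all 4 fits, and 6 lay below and 1 above the controls in each. Apart from rescaling, this was fixed in advance, because their groups did not overlap with all 4 libraries. The calls differed between the fits. CCNE2 passed in all 4 fits, with edgeR adjusted p-values from 0.00019 to 0.0033. Without DMSO replicate 1, where 0.194% of all genes were called lower and 0.318% higher, and without DMSO replicate 2, where these shares were 0.111% and 0.332%, it was the only one of the 7 to pass. Without YW-LF replicate 1, where the DMSO pair sets the spread, 20.7% of all genes were called lower and 21.0% higher, and 6 of the 7 passed (all but CDK2). Without YW-LF replicate 2, where 10.2% were called lower and 10.1% higher, 6 passed (all but FBXW7, at an edgeR adjusted p of 0.067). In such fits the lone library of a group is assumed to vary like the pair.

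**Figure D4:**
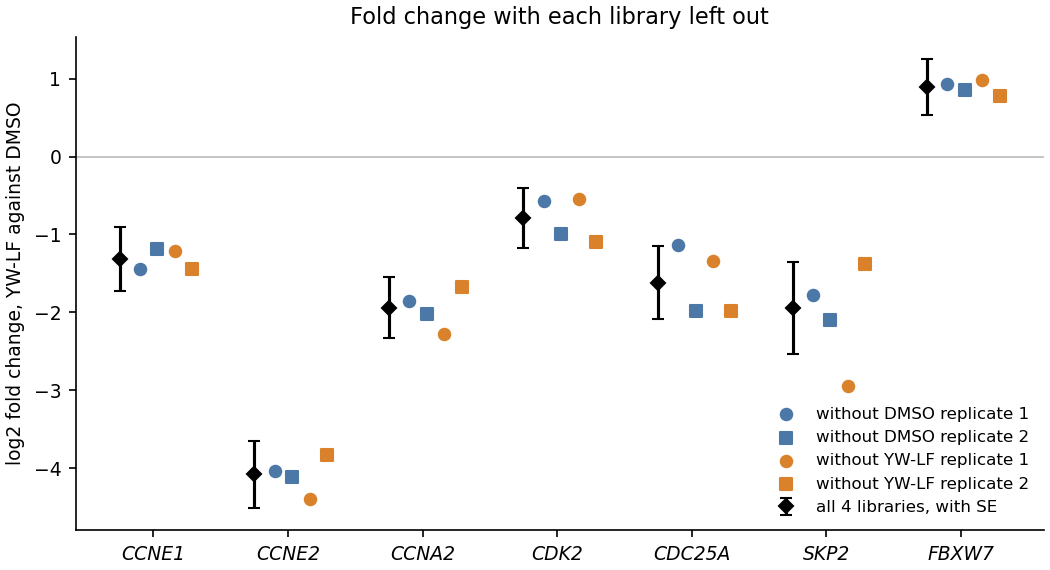
Log2 fold change of the 7 genes with all 4 libraries (black diamonds, bars are 1 SE) and with each library left out (DMSO in blue, YW-LF in orange, circles for replicate 1 and squares for replicate 2). FBXW7 moves least, from 0.78 to 0.98, and SKP2 moves most, from -1.38 to -2.95.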

How the data were processed

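The deposited values are raw counts per gene: whole numbers whose totals differ between libraries. No aligner, counter or annotation is stated. GRCm38 and mm10, both mouse, are the builds in the submitters' processing notes, yet all 20263 identifiers are human Ensembl genes. Symbols came from a reference table (20148 identifiers matched) and coordinates from GENCODE 29 (GRCh38). A second deposited table held the same DMSO counts (40526 of 40526 identical), and 2 columns that match no label were not used. Counts were filtered with filterByExpr, scaled by the trimmed mean of M-values (TMM) and tested with edgeR 4.0.16 (quasi-likelihood F-test, R 4.3.3) over all 4 libraries, with Benjamini-Hochberg adjustment over all genes and a threshold of 0.05. SE is the log2 fold change divided by the square root of F. CPM values carry the TMM scaling, and a prior count of 2 was added for log2 CPM. Ratios within a library used counts with 0.5 added. The fit was also run on simulated counts with the same relative spread in all genes. That run checked the recovery of set fold changes, not the calls in these data. DESeq2 1.42.0, limma-voom (limma 3.58.1), other scalings and filters, a replicate block and leaving out each library were alternatives. The 7 genes were named whatever their values, with up to 3 genes of lowest p per list and the nearest profiles. Further list genes were named after their values were seen, for their role or because their groups overlapped or lay close. The genes and lists were chosen with earlier results of these data known.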

Additional observations from a re-analysis of the deposited data

How the results depend on the processing

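All 7 genes kept their direction, and their groups did not overlap, under each of the 13 alternatives. With 1 library left out this was largely fixed in advance, because their groups did not overlap with every library kept. The replicate block and limma-voom used the same scaled CPM as the main fit, so the lack of overlap there was fixed as well. The edgeR test called 0 genes higher and 0 lower. These counts became 155 and 120 without a count filter, 186 and 145 with a replicate block, and 812 and 618 in DESeq2. They stayed at 0 and 0 in limma-voom, under each other scaling and without mitochondrially encoded genes. Requiring at least 10 counts in all 4 samples also left them at 0 and 0. At an unadjusted p under 0.05 edgeR gave 1585 and 1245. Leaving out 1 library gave 46 to 2963 genes higher and 16 to 2919 lower. Calls gained were CCNE2 without a count filter (-4.09), with the replicate block (-4.10) and in DESeq2 (-4.07); CCNA2 with the replicate block (-1.97) and in DESeq2 (-1.93); and CDC25A (-1.61) and SKP2 (-1.95) in DESeq2. The replicate block changed no other call among the 7. The labels tie replicate numbers to no batch. Same-numbered deviations correlated at 0.037 across genes, a value that cannot show whether same-numbered samples were handled together. With 1 library left out, the log2 fold change ran from -1.45 to -1.19 for CCNE1, -4.40 to -3.83 for CCNE2, -2.28 to -1.67 for CCNA2, -1.10 to -0.54 for CDK2, -1.99 to -1.13 for CDC25A, -2.95 to -1.38 for SKP2 and 0.78 to 0.98 for FBXW7. In these fits the 12 list genes above DMSO became 12 to 22, and the 36 below became 38 to 48. With fewer libraries to compare, groups overlap less easily. Alternatives that kept all 4 libraries gave 11 to 12 above and 34 to 37 below. Of 31 list genes followed, 6 turned sign: with 1 library left out, WEE1 ran from -0.37 to 1.16, SKP1 from -0.25 to 0.80, CUL1 from -0.26 to 0.04, E2F3 from -0.83 to 0.12, RBX1 from -0.48 to 0.22 and MNAT1 from -0.14 to 0.09, the last also at 0.09 with library size only. The cause of these changes was not tested, beyond the smaller number of samples. The ratios kept their direction with 5 counts added to each gene. Leaving out 1 library could not turn them, because the groups did not overlap in any ratio. The replicate block leaves the mean difference of a ratio unchanged. Scalings put the median of all genes between 0.03 and 0.16. At most 50 counts in a library limit the precision of SPDYA.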
